A study of Mus musculus with 6 samples.

Results

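Acetylcholine receptor genes, 8 in all, were followed across the nuclei of the mouse adrenal gland. They are Chrna3, Chrna5, Chrna7, Chrnb2 and Chrnb4, which encode subunits of nicotinic receptors, and Chrm1, Chrm2 and Chrm3, which encode muscarinic receptors. The members were chosen by symbol, and all 8 were found among the 30406 genes that every library lists. Nicotinic receptors are cation channels built of several subunits that open when acetylcholine binds. Muscarinic receptors are single proteins that signal through G proteins, M1 and M3 through Gq to calcium stores and M2 through Gi. In the adrenal medulla, acetylcholine released from splanchnic nerve endings opens nicotinic receptors on chromaffin cells, and the entry of cations leads to release of catecholamines. In blood vessels, the M3 receptor of endothelium is known for relaxation through nitric oxide.

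The libraries hold nuclei of adrenal glands from female C57BL/6J mice aged 10 to 11 months, 1 pair of glands per library, collected by a DAPI sort and sequenced by a droplet method that tags each captured RNA with a unique molecular identifier (UMI). The labels give 2 libraries as knockout (KO) for Tmem127, a phaeochromocytoma tumour suppressor gene, and 3 as wild type (WT). A sixth library is WT by its title but KO by its genotype entry, so it stayed unassigned: it entered the levels by class and was kept out of every comparison of genotypes. No label says which part of Tmem127 was removed, and its UMIs therefore check no label. In chromaffin-like nuclei they were 37.9 and 46.1 counts per 1000000 UMIs (CPM) in KO, 27.2, 22.7 and 26.3 in WT, with 20.4 in the unassigned one.

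After filters 21035 nuclei remained, 2802 to 4476 per library, from totals of 4825169 UMIs in KO 2 to 43377724 in WT 1. Median UMIs per barcode were 5419 and 1289 in KO, 7675, 1783 and 4114.5 in WT, with 4434 in the unassigned one, and any pair of libraries shared 2 to 9 barcode sequences. Clusters were formed without the 8 receptor genes and named from markers, with "-like" for a name that rests on them alone. Chromaffin-like nuclei, 177 to 283 per library, had 1508 ± 643 CPM of Th, which makes the catecholamine precursor L-DOPA (mean ± SD, n = 6 libraries, as for all levels below), against at most 58.3 elsewhere as a mean. They form clusters 6 and 13, which differ in Pnmt, whose enzyme makes adrenaline: 222 to 784 CPM in cluster 6 and 5.52 to 42.4 in cluster 13. Endothelium-like nuclei, 413 to 1170 per library, form clusters 2, 7, 10, 16 and 22 and had 3254 ± 380 CPM of Flt1, a VEGF receptor. Zona glomerulosa-like nuclei (cluster 0) and zona fasciculata-like nuclei (cluster 1) are cortical, as are the unnamed clusters 3 and 4, which were kept apart by number.

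Positions are those of GENCODE M21 on GRCm38. Chrna5 (chr9:54980880-55007779, plus strand), Chrna3 (chr9:55010111-55026562, minus) and Chrnb4 (chr9:55028154-55048779, minus) are neighbours within 67900 bases, with 2331 bases between Chrna5 and Chrna3 and 1591 between Chrna3 and Chrnb4. Chrna7 lies at chr7:63098692-63212569, Chrnb2 at chr3:89746195-89764632, Chrm1 at chr19:8663789-8683587, Chrm2 at chr6:36388084-36528414 and Chrm3 at chr13:9875486-10360847. Chrm3 is the longest of them with 485362 bases, of which 6253 are exonic, so a level that includes intronic reads depends on length, and levels are set side by side here only within a gene. Chrnb2 shares 7252 bases with Adar on the other strand and Chrnb4 8647 with the antisense gene Gm47877. The sources used here do not say how strand and introns were treated in counting.

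Promoter windows of RefSeq on GRCm38.p6, taken as the 250 bases before a transcript start, were found for 7 of the 8 genes. The bases that lie outside the annotated gene are shown for 3 nicotinic subunits, those with the longest such stretch, of which Chrna3 and Chrna7 had 93.7% and 95.5% of their UMIs in chromaffin-like nuclei and Chrnb2 51.5%. They run 5′ to 3′ on the minus strand at chr9:55026563-55026812, chr7:63212570-63212776 and chr3:89764633-89764882, and capitals mark the GC box GGGCGG or its complement.
Chrna3: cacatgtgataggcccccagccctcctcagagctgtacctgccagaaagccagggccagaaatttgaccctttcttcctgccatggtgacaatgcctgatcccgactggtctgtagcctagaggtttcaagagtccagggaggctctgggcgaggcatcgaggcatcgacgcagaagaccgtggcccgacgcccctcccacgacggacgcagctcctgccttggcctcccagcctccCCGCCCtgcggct
Chrna7: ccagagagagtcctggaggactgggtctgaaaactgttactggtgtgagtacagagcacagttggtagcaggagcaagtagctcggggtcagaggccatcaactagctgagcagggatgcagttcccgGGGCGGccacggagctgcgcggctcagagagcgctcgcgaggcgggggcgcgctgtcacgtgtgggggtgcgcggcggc
Chrnb2: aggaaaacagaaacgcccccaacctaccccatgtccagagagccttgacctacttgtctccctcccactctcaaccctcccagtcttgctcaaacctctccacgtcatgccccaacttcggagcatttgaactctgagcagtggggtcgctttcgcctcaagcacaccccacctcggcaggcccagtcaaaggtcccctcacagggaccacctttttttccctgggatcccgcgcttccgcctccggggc

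The Chrna3 and Chrna7 windows each held 1 GC box and the Chrnb2 window held 0. Of all 32851 windows, 32.7% hold this motif on either strand. The E-box CAGCTG, which 13% of windows hold, occurred once, in the Chrnb4 window, which is not shown because it lies inside a longer annotated transcript. The cAMP response element TGACGTCA (1.5% of windows) and the ETS motif CCGGAA (12.0%) occurred in no window of these genes, and the GATA motif AGATAA (10.0%) once, in 1 of 2 windows of Chrna5, the other of which held 4 GC boxes. The windows of Chrna3, Chrna7 and Chrnb2 were 63.2%, 67.2% and 59.6% G or C over 250 bases, against a median of 52.4% over all windows.

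Chrna7, the subunit of the homomeric α7 receptor with high calcium permeability, had its highest level in chromaffin-like nuclei. Its level there was 1245 and 1009 CPM in KO, 1352, 1294 and 1989 in WT, with 2173 in the unassigned one, a mean of 1510.3 ± 461. Of 22367 Chrna7 UMIs in all nuclei, 21364 (95.5%) were in this class, which held 5.01% to 9.14% of nuclei. The next level was 32.1 ± 18.1 CPM in pericyte or smooth muscle-like nuclei, from 48 UMIs, and the ranges did not touch. Among the other large classes the level was 19.9 ± 7.92 in capsule or fibroblast-like and 12.9 ± 2.63 in zona glomerulosa-like nuclei. It was 9.30 ± 4.30 in endothelium-like and 6.80 ± 1.39 in zona fasciculata-like nuclei. Of these 4 classes, each overlapped in range with the one named next. Clusters 3 and 4 and some smaller classes lay in between. Dendritic-like (6.36 CPM), mesothelium-like (5.62), adipocyte-like (5.45) and hepatocyte-like nuclei (1.61) were lower.

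Chrna3, which gives the α3 subunit of the ganglionic receptor, had 864 of its 922 UMIs (93.7%) in chromaffin-like nuclei. Its level was 66.9 and 50.4 CPM in KO, 81.5, 72.2 and 44.3 in WT, with 49.4 in the unassigned one. Chrnb4, the β4 partner of α3, had 408 of 436 UMIs (93.6%) there, at 33.1 and 24.5 CPM in KO, 40.2, 37.1 and 18.0 in WT, with 20.4 in the unassigned one. Both genes were thus found in all 6 libraries, and both were lowest in WT 3 and highest in WT 1. In endothelium-like, zona glomerulosa-like and zona fasciculata-like nuclei Chrna3 averaged 0.71, 0.45 and 0.61 CPM and Chrnb4 0.12, 0.17 and 0.53.

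Chrna5, an accessory subunit of the same chromosome 9 cluster, was sparse. It had 35 UMIs in all nuclei, of which 27 were in chromaffin-like nuclei, with 2 to 9 per library and a level of 2.18 ± 0.74 CPM. Chrnb2, the β2 subunit best known from brain, had 163 UMIs in all, 84 of them (51.5%) in chromaffin-like nuclei at 7.11 ± 4.03 CPM. Its 79 other UMIs lay mainly in larger cortical and endothelial classes, where it averaged 0.17 to 1.67 CPM. For both genes most chromaffin-like nuclei gave no UMI.

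**Figure D1:**
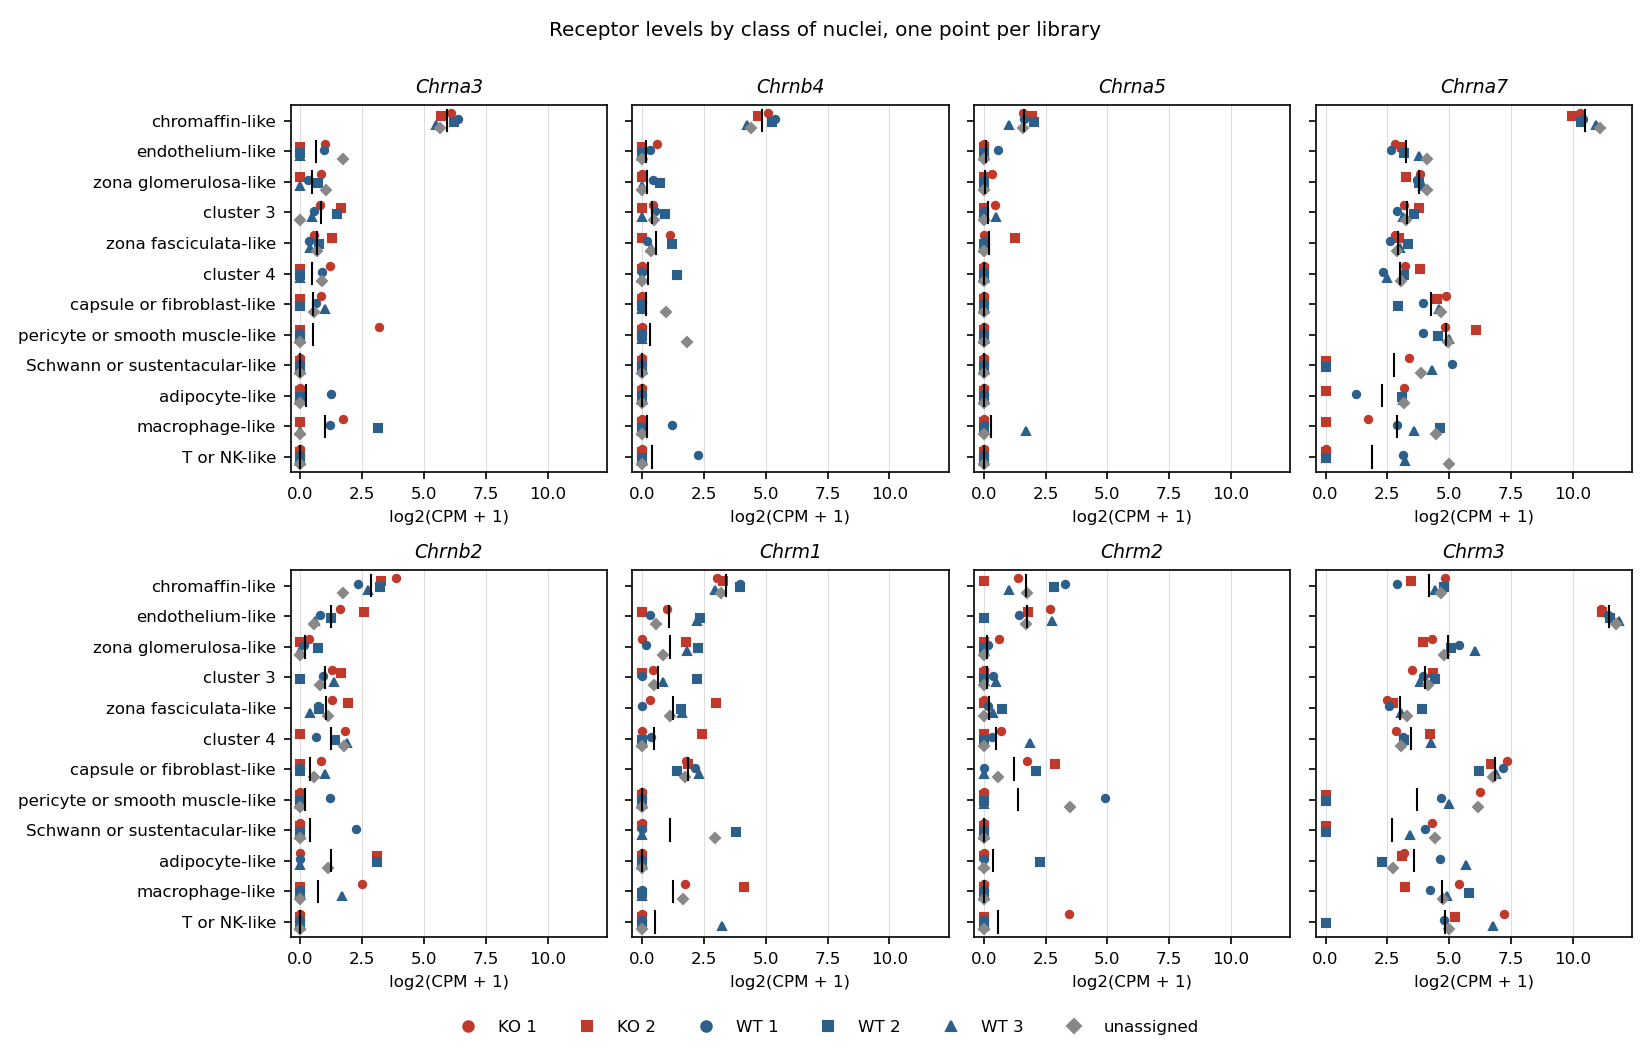
Level of each receptor gene, as log2(CPM + 1) of summed UMIs, in 12 classes or unnamed clusters of nuclei. Each point is 1 library (red KO, blue WT, grey unassigned) and the black line is the mean. Chrna3, Chrnb4, Chrna5 and Chrna7 are highest in chromaffin-like nuclei, where Chrna7 has a mean of 1510.3 CPM, and Chrm3 in endothelium-like nuclei, with a mean of 2902 CPM.

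Per nucleus, at least 1 Chrna7 UMI was found in 93.4% and 68.75% of chromaffin-like nuclei of the KO libraries, in 97.2%, 86.9% and 99.4% of the WT libraries and in 98.5% in the unassigned library. The lowest share was in KO 2, which also had the lowest median depth in this class, 2308.5 UMIs against 3605 to 14902 in the others. For shares after thinning, nuclei with at least 1000 UMIs were thinned to 1000 each and the others were left out. In endothelium-like nuclei of KO 2 and WT 2, with median depths of 855 and 915 UMIs, most nuclei were thus left out. The thinned share was 61.7%, against 1.39% in endothelium-like and 1.05% in zona fasciculata-like nuclei. Chrna3 was seen in 31.7% of chromaffin-like nuclei before thinning and 5.62% after it. Chrnb4 was seen in 18.0% and 3.09%. In WT 1, the deepest library, 159 of 283 chromaffin-like nuclei had Chrna3, 101 had Chrnb4 and 67 (23.7%) had both, while in KO 2, the shallowest, both were seen in 4 of 256 (1.56%). Of the 159 nuclei of WT 1 with Chrna3, 158 also had a Chrna7 UMI.

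The clusters of chromaffin-like nuclei shared Chrna3 and differed in Chrna7 and Chrm1. Chrna3 was 59.6 ± 15.4 CPM in cluster 6, the one with Pnmt, and 63.6 ± 20.9 in cluster 13. Chrna7 was 796 and 792 CPM in KO, 902, 1042 and 1846 in WT, with 2068 in the unassigned one, all in cluster 6. In cluster 13 it was 2331 and 1860.4 in KO, 2323, 2154 and 2694 in WT, with 2571 in the unassigned one. Cluster 13 thus had the higher level in 6 of 6 libraries, with means of 2322 ± 297 and 1241 ± 567, although the ranges overlapped. After thinning, 78.7% of nuclei in cluster 13 and 55.5% in cluster 6 had a Chrna7 UMI. Chrnb4 was 39.4 ± 4.89 CPM in cluster 13 and 25.9 ± 10.5 in cluster 6, and cluster 13 was the higher in all libraries but WT 2, where the values were 36.4 and 37.3.

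Chrm1, the M1 receptor, which in nerve cells raises excitability, had 128 of its 239 UMIs in cluster 13. Its level there was 24.8 and 42.4 CPM in KO, 43.8, 45.4 and 36.7 in WT, with 33.7 in the unassigned one. In cluster 6 it was 0 in both KO libraries, 1.00, 5.34 and 0.62 CPM in WT, with 1.27 in the unassigned one, from 11 UMIs in 1061 nuclei. The ranges of the clusters did not touch, and in every other class Chrm1 averaged under 10 CPM from at most 25 UMIs. Without thinning 21.9% of nuclei in cluster 13 held a Chrm1 UMI (8.47% to 37.5% over libraries), and after thinning 4.01%. The median depth of a nucleus was 1895 to 13118 UMIs over libraries in cluster 13 and 2445 to 15658 in cluster 6. The share of chromaffin-like nuclei in cluster 13 was 26.4% and 23.0% in KO, 33.9%, 29.7% and 22.0% in WT, with 22.1% in the unassigned one, so a level of the whole class is a mixture of both clusters.

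**Figure D2:**
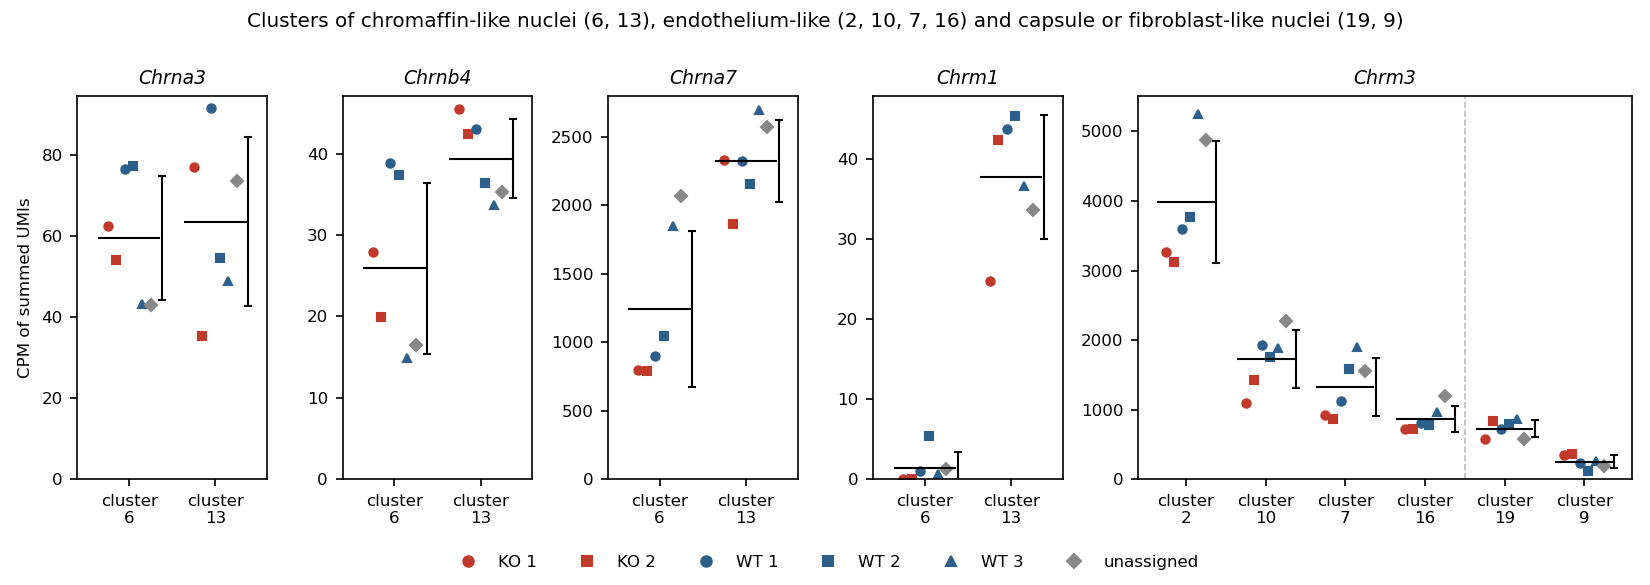
CPM of Chrna3, Chrnb4, Chrna7 and Chrm1 in chromaffin-like clusters 6 and 13, and of Chrm3 in 4 endothelium-like clusters and, right of the dashed line, 2 capsule or fibroblast-like clusters. Points are libraries, horizontal lines means and bars 1 SD (n = 6), with the axis starting at 0. Chrm1 separates clusters 6 and 13 without overlap, and Chrm3 is highest in cluster 2, at 3124 to 5250.4 CPM.

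Chrm3, the M3 receptor, was the receptor gene of endothelium-like nuclei. In endothelium-like nuclei it had 2293 and 2352 CPM in KO, 2726, 2891 and 3723 in WT, with 3428 in the unassigned one, a mean of 2902 ± 575. This class held 33886 of 36768 Chrm3 UMIs (92.2%). The next class, capsule or fibroblast-like nuclei, had 118 ± 31.1 CPM, with a highest library of 159.8, far below the lowest endothelial one.

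Within endothelium Chrm3 differed by cluster. Cluster 2, led by D5Ertd615e and Pcdh17, had 3980.1 ± 876 CPM and a Chrm3 UMI in 89.3% of thinned nuclei (84.2% to 92.1%). Cluster 10, with Cyp26b1, Esm1, Npr3, Sema3g and Dll4 among its leading genes, had 1726 ± 416 CPM. Cluster 7 (Tll1, Car8) had 1327 ± 416 and cluster 16 (Scin, Prom1, the arterial kinase gene Bmx) 861 ± 183. In cluster 22, with 71 nuclei, 1 Chrm3 UMI was found in KO 1, 1 in the unassigned library and 0 in the others. The lowest library of cluster 2, at 3124 CPM, was above the highest of every other endothelium-like cluster, which was 2277 in cluster 10, whereas clusters 10 and 7 overlapped, as did 7 and 16.

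Chrm3 was also found outside the endothelium-like class, in nuclei whose place in the gland is not known. Cluster 19, given next, held 13 to 51 nuclei per library. Fibroblast-like cluster 19, with Pi16 and Dpt among its leading genes, had 570.4 and 831 CPM in KO, 723, 786 and 858 in WT, with 576 in the unassigned one, 724 ± 125 on average. Capsule-like cluster 9, led by the WNT amplifier gene Rspo3, had 248 ± 94.1. In cluster 5, marked by Gata4 and Prdm6, it was 22.4 ± 12.8. After thinning, 30.6% of nuclei in cluster 19 and 15.5% in cluster 9 had a Chrm3 UMI. Hepatocyte-like nuclei were 49 in all, 46 of them in KO 1, where 10 held 54 Chrm3 UMIs.

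Chrm3 in other classes was read against the summed UMIs of 9 endothelium markers. Endothelium-like nuclei had 263 Chrm3 UMIs per 1000 marker UMIs as a median of libraries (201 to 325). Capsule or fibroblast-like nuclei had 482 (299 to 506), and the hepatocyte-like nuclei 2160. Zona fasciculata-like nuclei had 116 (69.0 to 213) at 7.53 ± 3.48 CPM, and cluster 4 had 132 (78.7 to 380). With doublets kept, Chrm3 was 11.9 ± 6.76 CPM in zona fasciculata-like nuclei, and 16.3 ± 7.87 against 10.9 ± 5.41 in cluster 4, so these low levels depend on how doublets were removed. It also rose from 33.4 to 42.4 in zona glomerulosa-like, 19.3 to 26.4 in chromaffin-like and 29.6 to 57.4 in macrophage-like nuclei. In endothelium-like nuclei it fell to 2749 ± 578, and it also fell in adipocyte-like, hepatocyte-like and mesothelium-like nuclei. Chromaffin-like nuclei had 273 (104 to 664) at 19.3 ± 8.97 CPM, a range that spans the endothelial one. Of chromaffin-like nuclei 1.82% had a Chrm3 UMI after thinning, against 1.00% of zona fasciculata-like nuclei.

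Among cortical nuclei, those like zona glomerulosa had the highest mean Chrm3, although cluster 3 (15.8 ± 3.96 CPM) overlapped with them. Chrm3 there was 18.99 and 14.6 CPM in KO, 41.4, 33.1 and 65.0 in WT, with 27.0 in the unassigned one. Its ratio to endothelium markers was 267 and 174 per 1000 in KO, 714, 505 and 1392 in WT, with 669 in the unassigned one. The WT and unassigned libraries thus lay above the endothelial range over libraries and the KO libraries within or below it. Against endothelium-like nuclei of the same library, however, KO 1 also lay above (267 against 201), and only KO 2 below (174 against 252). Of the 206 Chrm3 UMIs in zona glomerulosa-like nuclei of WT 3, 42 were in 1 nucleus of 8979 UMIs. The share of thinned nuclei with a UMI was 1.39% and 1.53% in KO, 2.80%, 3.18% and 5.20% in WT, with 1.58% in the unassigned one. Chrna7 in these nuclei had 110 UMIs per 1000 chromaffin marker UMIs (51.1 to 238), against 132 (93.0 to 200.1) in chromaffin-like nuclei.

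**Figure D3:**
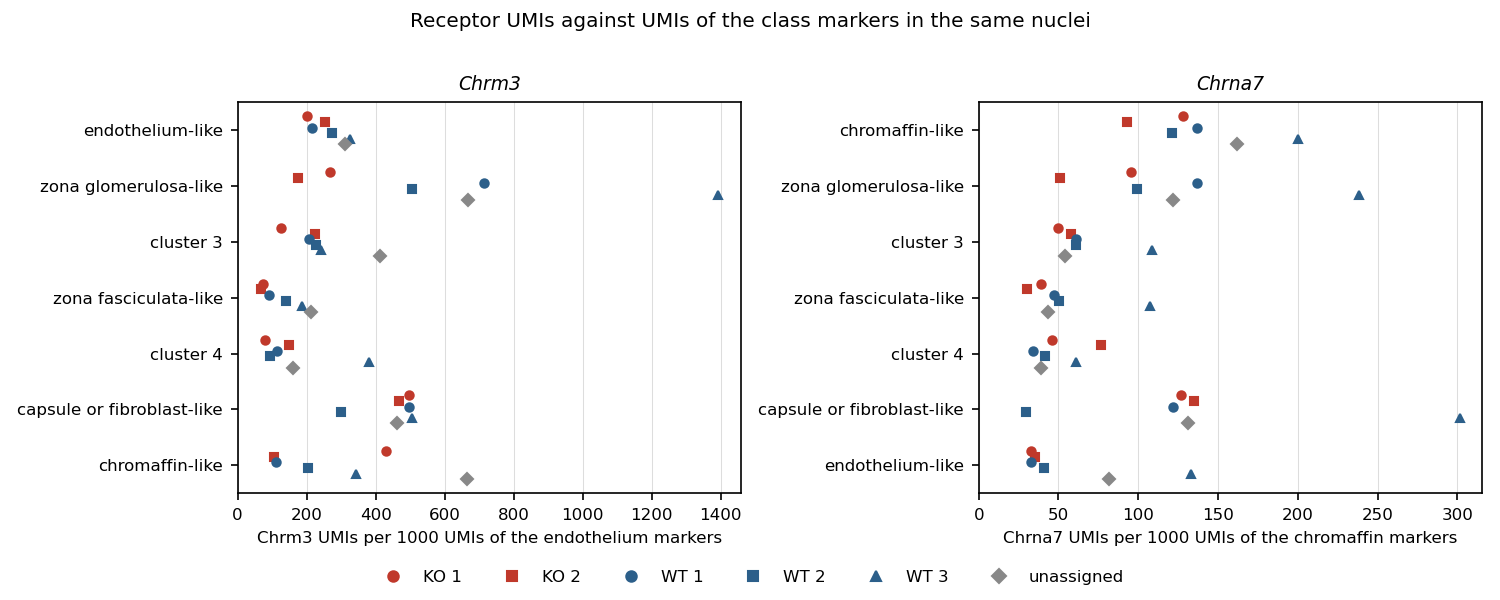
Chrm3 UMIs per 1000 UMIs of endothelium markers (left) and Chrna7 UMIs per 1000 UMIs of chromaffin markers (right) in the same nuclei, one point per library, by class. For Chrm3 the zona glomerulosa-like nuclei of WT libraries lie at 505 to 1392, right of the endothelium-like range of 201 to 325.

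Chrm2, the M2 receptor, known as the receptor of the heart's pacemaker, had 152 UMIs in 59 nuclei, unevenly spread. All 38 Chrm2 UMIs of chromaffin-like nuclei in WT 1 were in 1 nucleus of 38049 UMIs. Another 20 were in 1 pericyte or smooth muscle-like nucleus of WT 1, out of 26 in that class. Without the nucleus of 38, chromaffin-like nuclei had 19 Chrm2 UMIs over 10 nuclei. Most Chrm2 UMIs of both classes thus came from 1 nucleus each. Endothelium-like nuclei had 35 UMIs in 18 nuclei, at most 6 in any, at 2.93 ± 2.23 CPM, and zona glomerulosa-like and zona fasciculata-like nuclei 3 each. The highest mean was that of mesothelium-like nuclei, 53.0 ± 83.5 CPM over 4 libraries, but from 5 UMIs in 2 nuclei.

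The remaining receptor genes gave few UMIs. Of 11 other nicotinic subunits, the highest with UMIs in 6 libraries was Chrna4 in zona glomerulosa-like nuclei, at 16.7 ± 6.22 CPM from 344 UMIs. Chrna9 had 20 UMIs in chromaffin-like nuclei (1.86 ± 1.35 CPM). Chrm4 had 1 UMI in zona glomerulosa-like nuclei, and Chrm5 had 0 in every class. On the side of the transmitter, Chat, which makes acetylcholine, had at most 9 UMIs in a class, and the vesicular transporter gene Slc18a3 had 0. Ache, which breaks acetylcholine down, was 26.7 ± 6.73 CPM in chromaffin-like nuclei.

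Partner genes had patterns of their own. Ric3 and Tmem35a, chaperones needed for α7 assembly, were highest in zona fasciculata-like nuclei, at 133 ± 14.8 and 82.8 ± 13.3 CPM, and chromaffin-like nuclei were not among the 3 highest classes for either. The calcium channel gene Cacna1d, which has a part in chromaffin pacemaking, was 1632 ± 140.1 CPM in chromaffin-like nuclei, and the channel genes Cacna1a and Cacna1b were 367 ± 57.0 and 278 ± 19.3. Kcnj6, a potassium channel gene opened through Gi, was 195.5 ± 28.2 there. In endothelium-like nuclei Nos3, the nitric oxide synthase gene, had its highest level, 121 ± 16.2 CPM. The Gq gene Gnaq had 843 ± 93.6 and Plcb4, a phospholipase C gene, 878 ± 113.

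Over 24 clusters, with CPM averaged over libraries and put on a log2(CPM + 1) scale, the genes most like each receptor were found by Pearson correlation, as a description over clusters that share libraries and depth. Among the genes most like Chrna7 were Dcx (r = 0.94) and Jph4 (0.93), and among those most like Chrna3 were Adgra1 (0.94) and Fam163a (0.93). Chrnb4 was most like Mab21l2 (0.99). Chrnb2 reached 0.83 with Cpa4, Chrm1 0.78 with Radx and Chrm2 0.78 with Pkhd1l1, which was highest in cluster 20, the mesothelium-like one. Chrm3 was most like Endou (0.87), Exoc3l2 (0.86) and D5Ertd615e (0.85). Among the receptors, Chrna7 and Chrnb4 had r = 0.92, Chrna3 and Chrnb4 0.87, and Chrm3 had values of -0.18 to 0.04 with the other 7.

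KO and WT were compared within classes with edgeR's quasi-likelihood test. The batch term was the Cell Ranger version named in the file headers, and p-values were adjusted over all genes tested (Benjamini-Hochberg). KO 1 and WT 1 (version 4.0.0) list 32285 genes and the others (3.1.0) list 31053. Below, "annotation" stands for this split of the libraries. In chromaffin-like nuclei 7 of the 8 genes passed the filter on low counts and 0 of 7 passed the adjusted threshold of 0.05, against 0% of 11032 genes called there. At an unadjusted p under 0.05 there were 574 genes, and DESeq2 called 9. Chrna7 lay below WT in both KO libraries, 1245 and 1009 against 1352, 1294 and 1989 CPM, with a log2 fold of -0.47 ± 0.22 (SE; edgeR adjusted p = 0.931). The fold was -0.12 within the annotation of KO 1 and WT 1 and -0.70 within that of KO 2, WT 2 and WT 3. Per 1000 chromaffin marker UMIs Chrna7 was 128 and 93.0 in KO against 137, 121 and 200.1 in WT, so the pooled groups overlapped on this scale. Within each annotation KO was lower, 128 against 137, and 93.0 against 121 and 200.1. Of 19 marker lists 5 were apart between the groups in these nuclei, among them the zona glomerulosa markers, at 137 and 193 CPM in KO against 96.3, 109 and 93.2 in WT, and their part was not tested. Without WT 3 the log2 fold of Chrna7 was -0.26, and without KO 2 it was -0.17.

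Chrnb2 lay above WT in both KO libraries of chromaffin-like nuclei, 13.7 and 8.64 CPM against 4.09, 8.25 and 5.66, from 77 UMIs. Its log2 fold was 1.14 ± 0.51 (edgeR adjusted p = 0.931), 1.75 within the annotation of KO 1 and 0.31 within the other, and without KO 1 it was 0.33. The unassigned library had the lowest value, 2.34 CPM. For Chrna3, Chrnb4 and Chrm1 the groups overlapped, with log2 folds of -0.26 ± 0.24, -0.23 ± 0.33 and -0.72 ± 0.49. Chrm2 had a fold of -2.59 ± 0.96 (edgeR adjusted p = 0.931), which rests on the single WT 1 nucleus described above for 38 of its 50 UMIs. Over the 7 genes the median log2 fold was -0.26, against 0.02 over all genes tested. Within cluster 6 Chrna7 had a fold of -0.59 ± 0.26 and did not overlap between groups, and within cluster 13 it had -0.18 ± 0.20 and overlapped. In cluster 6, 0 of 5 members passed, against 0% of genes called and 559 at an unadjusted edgeR p under 0.05, and in cluster 13, 0 of 4, against 0.0176%.

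In endothelium-like nuclei 0 of 3 members tested passed, against 0.0189% of 10571 genes called there. Chrm3 was 2293 and 2352 CPM in KO against 2726, 2891 and 3723 in WT. The groups did not overlap, and the unassigned library, at 3428, lay in the WT range. Per 1000 endothelium marker UMIs of the same nuclei, Chrm3 was 201 and 252 in KO against 217, 273 and 325 in WT. Pooled over annotations the groups overlapped on this scale. Within each annotation KO was lower, 201 against 217, and 252 against 273 and 325. One of these markers, Egfl7, ran from 58.5 to 811 CPM over libraries. The log2 fold of Chrm3 was -0.40 ± 0.17 (edgeR unadjusted p = 0.0304, adjusted p = 0.9999), and it was -0.25 and -0.49 within the annotations. Over 14 alternatives it kept its sign, from -0.50 to -0.22, with adjusted p of 0.332 to 1. The groups were also apart in cluster 2 (-0.37 ± 0.20), cluster 7 (-0.68 ± 0.25) and cluster 10 (-0.59 ± 0.25), which are subsets of the same nuclei. How many of all genes tested were apart in this way was not counted. Chrm3 passed in none of these 3 clusters. In cluster 10, 0.0206% of genes passed, and in clusters 2 and 7 0%, with 225 and 248 genes at an unadjusted edgeR p under 0.05.

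Zona glomerulosa-like nuclei had the smallest adjusted p of any member. The Chrm3 values of 18.99 and 14.6 CPM in KO against 41.4, 33.1 and 65.0 in WT did not overlap, and the unassigned library had 27.0, between the groups. Of the 206 UMIs behind the WT 3 value, 42 came from 1 nucleus, and no fit was made without that nucleus. The log2 fold was -1.36 ± 0.31 (edgeR unadjusted p = 0.000788, adjusted p = 0.108), so it did not pass, while 0.415% of 11338 genes did. Within the annotations it was -1.13 and -1.75. It passed with DESeq2 (adjusted p = 0.0489), with no filter on low counts (edgeR adjusted p = 2.02e-06), without WT 2 (0.0161) and without WT 3 (0.0176), and over all 14 alternatives the adjusted p ran from 2.02e-06 to 0.999. Summed endothelium markers in these nuclei went the other way, 71.1 and 84.0 CPM in KO against 58.0, 65.6 and 46.7 in WT. Zona glomerulosa markers were 6310 and 6789 CPM in KO against 7586, 7381 and 8372 in WT, and 7 of 19 marker lists were apart between the groups here. Their part in the Chrm3 values was not tested.

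In zona fasciculata-like nuclei 0 of 2 members tested passed, against 0% of 11549 genes, where 223 genes had an unadjusted edgeR p under 0.05 and DESeq2 called 4. In capsule or fibroblast-like nuclei 0 of 2 members passed, against 0.0289% of genes called, in cluster 3, 0 of 2, against 0.00898%, and in cluster 4, 0 of 2, against 0%, with 234 genes at an unadjusted edgeR p under 0.05. Chrna7 in cluster 4 was apart between the groups but higher in KO, at 8.20 and 13.1 CPM against 4.06, 8.13 and 4.68 in WT. In adipocyte-like, macrophage-like and T or NK-like nuclei Chrm3 alone was tested and did not pass, against 0.283%, 0.0287% and 0.665% of genes called. Counting every class and cluster, 35 tests of members were made in 15 units and 0 passed. Chrna5 was too sparse to be tested in any of them. The p-values measure the spread between these libraries, 2 against 3, and a p that misses the threshold does not show that levels were equal. Only WT 2 and WT 3 share both group and batch, so no KO library is repeated within a batch. The share of all genes with groups apart was not counted in any class or cluster, so no member stands out by that alone.

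Gm42418, a transcript that overlaps a ribosomal RNA repeat, separated the groups in the same classes. In chromaffin-like nuclei it was 12281 and 9722 CPM in KO, 5371, 5570.5 and 2709 in WT, with 2364 in the unassigned one. In endothelium-like nuclei it was 14180 and 10911 in KO, 8013, 6949 and 3789 in WT, with 3294 in the unassigned one. WT 3 and the unassigned library, which had the lowest Gm42418, had the highest Chrna7 in chromaffin-like and the highest Chrm3 in endothelium-like nuclei. Its part in these results was not tested.

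**Figure D4:**
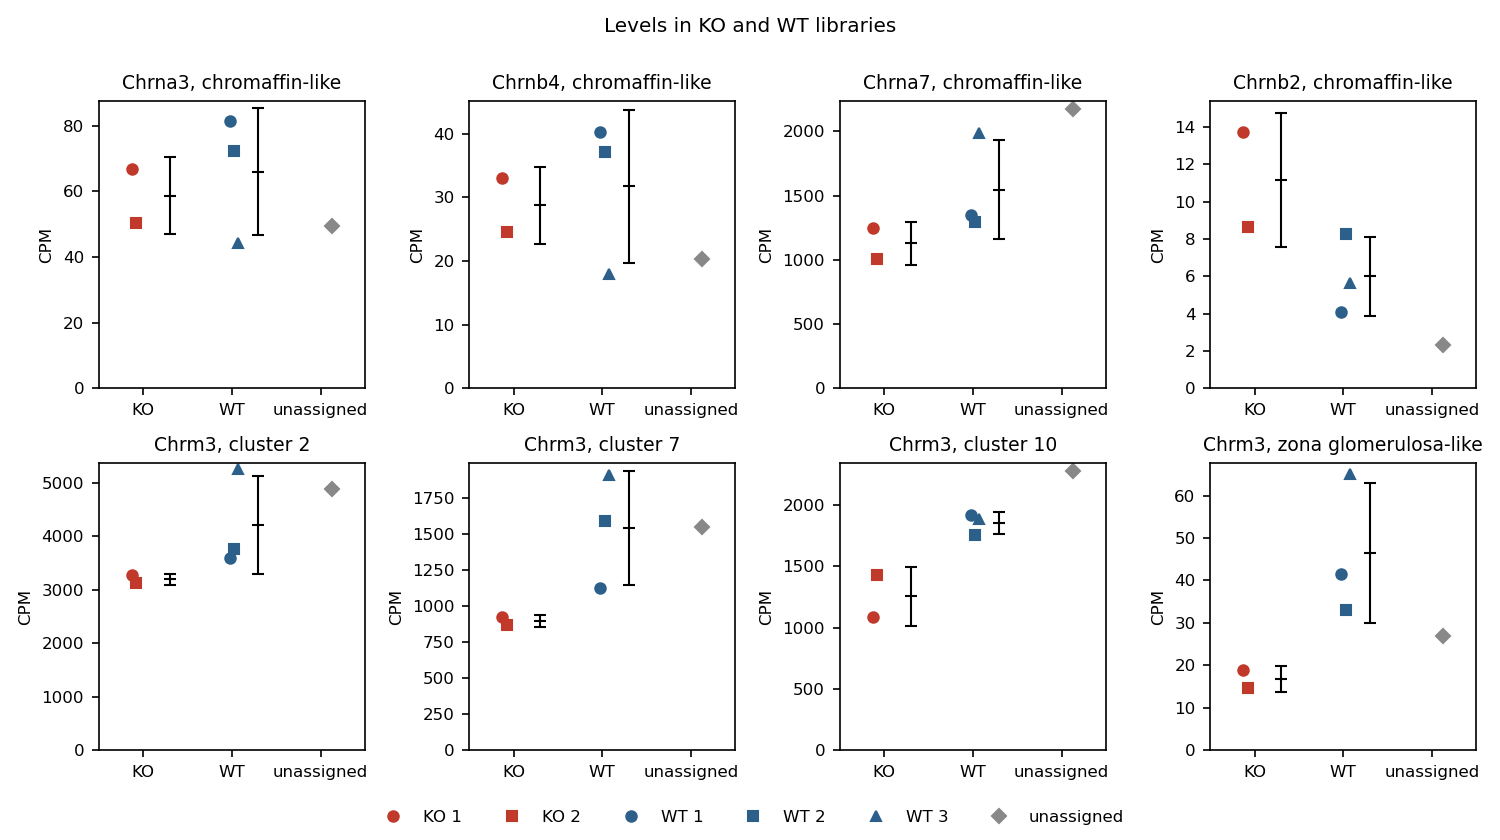
Level in CPM of receptor genes in KO, WT and unassigned libraries in the class named above each panel. Points are libraries, lines are means and bars 1 SD for KO (n = 2) and WT (n = 3), with the axis starting at 0. Chrm3 does not overlap between KO and WT in endothelium-like clusters 2, 7 and 10 or in zona glomerulosa-like nuclei, and no panel passes the adjusted threshold. The share of all genes that do not overlap was not counted.

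Whether the genotype difference itself differed between endothelium-like and chromaffin-like nuclei was tested with the library as a block. Of 7 members tested 0 passed, against 0% of 12298 genes, with 464 at an unadjusted edgeR p under 0.05. The difference in log2 fold was -0.90 ± 0.48 for Chrm3, 0.04 ± 0.49 for Chrna7 and 2.97 ± 1.46 for Chrm2, each with an edgeR adjusted p of 1.

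Of the lists of partner genes, 0 genes passed in chromaffin-like, endothelium-like or zona glomerulosa-like nuclei. In chromaffin-like nuclei 6 of 11 genes of receptor assembly and Ly6 modulators could be tested, with a median log2 fold of 0.42, and 8 of 9 calcium channel genes, with a median of -0.05. In endothelium-like nuclei 13 of 16 genes of Gq signalling had a median of 0.10 and 7 of 8 genes of the nitric oxide route -0.03. The 1 call among all lists and classes was Plcb1, a phospholipase C gene, in T or NK-like nuclei, where 0.665% of 3008 genes were called. It was 293 and 224 CPM in KO against 1250.3, 2385 and 1417 in WT, and it fell by 2.51 ± 0.45 on the log2 scale (edgeR adjusted p = 0.00785). The unassigned library had 1385, within the WT range. The KO libraries held 41 and 27 such nuclei, the WT libraries 85, 28 and 55, and 7 of 19 marker lists were apart between the groups. Zona fasciculata markers were 1035 and 1528 CPM in KO against 2178, 4192 and 1875 in WT in the same nuclei, and Plcb1 itself was highest in zona fasciculata-like nuclei, at 9685 ± 1330.0 CPM. Their part in the Plcb1 call was not tested.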

How the data were processed

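The authors' deposited UMI counts per gene and nucleus were used as given; reads were aligned to mm10 with Cell Ranger and handled with Seurat, per the submitters' processing notes. The file headers name Cell Ranger 4.0.0 for KO 1 and WT 1 and 3.1.0 for the others, which was taken as the batch. Barcodes with under 300 genes or at least 5% mitochondrial counts (48 of 21724) and 641 doublets were removed. Variable genes were chosen with scanpy 1.11.5 (2000 without the receptors). Their 30 principal components were corrected for library by a Harmony procedure before Leiden clustering of a shared-neighbour graph (resolution 0.8). Clusters were named where at least 3 markers passed, unless leading genes or low depth went against the name. Cluster 4 passed 5 zona fasciculata markers but stayed unnamed, because its 10 leading genes held more markers of another list. UMIs were summed per library and class. Levels by class are described with no test. KO and WT were compared with edgeR 4.0.16 (TMM, filterByExpr, quasi-likelihood test, batch as a term, Benjamini-Hochberg adjustment, threshold 0.05), with DESeq2 1.42.0 as an alternative. Shares were also computed after thinning to 1000 UMIs, with nuclei under 1000 UMIs left out. On simulated counts for the chromaffin-like comparison of 10891 genes, 20 of 97 genes changed 2-fold and 74 of 93 changed 4-fold were recovered, with 8 false calls. The simulation set a dispersion of 0.05 for every gene, which was not estimated from these libraries. The named genes are the 8 members, some of the 5 genes most like each (others are not reported here), and members of the fixed lists. Members and lists were chosen with earlier results of these data known.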

Additional observations from a re-analysis of the deposited data

Results flagged for a closer look

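Chrna7 in chromaffin-like nuclei of the unassigned library, which enters no comparison of genotypes, was 2173 CPM, above each WT library (1352, 1294 and 1989) and each KO library (1245 and 1009).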

How the results depend on the processing

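No paired analysis was possible because the replicate numbers were given in accession order and pair no samples. Of 201 alternative values of 26 member folds, 184 kept their direction and side of the threshold. Another 4 passed it (Chrm3 in zona glomerulosa-like nuclei, given above). The other 13 changed sign, in 4 results with main folds of 0.70, -0.12, 0.02 and -0.13, given below. The cause of each change was not tested. Genes called in chromaffin-like nuclei went from 0 to 9 with DESeq2, 99 with no filter and 0 to 30 with 1 library left out (11 without WT 2, 30 without WT 3). In endothelium-like nuclei they went from 2 to 43 with no filter, 0 with no batch term, 0 and 1 with the unassigned library as KO and as WT, and 14 to 31 with 1 library left out. In zona fasciculata-like nuclei they went from 0 to 4 with DESeq2, 36 with no filter and 0 to 26 with 1 library left out. In zona glomerulosa-like nuclei they went from 47 to 297 with no filter, 0 with no batch term, 0 and 4 with the unassigned library as KO and as WT, and 0 to 124 with 1 library left out (0 without KO 2, 124 without WT 3). Clusters 10 and 13 went from 1 to 0 with no batch term. The difference between classes went from 0 to 17 with no filter and 0 to 7 with 1 library left out. The Chrm3 fold in chromaffin-like nuclei, 0.70, was -0.13 with doublets kept and -1.23 to 2.05 with 1 library left out. Within the annotations it was 2.11 (KO 1, WT 1) and -1.23 (KO 2, WT 2, WT 3). The Chrna7 fold in endothelium-like nuclei, -0.12, was 0.25 with the unassigned library as KO and -0.58 to 0.16 with 1 library left out. In zona fasciculata-like nuclei it was 0.02, -0.018 with no filter, -0.18 without the batch term, and from -0.21 to 0.18 when 1 library was dropped. In zona glomerulosa-like nuclei it was -0.13, 0.074 with the unassigned library as KO, 0.0022 with doublets kept and -0.70 to 0.15 with 1 library left out. Thinning moved the share of chromaffin-like nuclei with a UMI from 31.7% to 5.62% (Chrna3), 1.52% to 0.0775% (Chrna5), 90.7% to 61.7% (Chrna7), 5.34% to 0.918% (Chrnb2), 18.0% to 3.09% (Chrnb4), 6.54% to 1.07% (Chrm1) and 0.794% to 0.0775% (Chrm2), and for Chrm3 in endothelium-like nuclei from 75.3% to 71.7%. The thinned shares leave out nuclei under 1000 UMIs, so they rest on other sets of nuclei than the shares before thinning.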
